A study of Mus musculus with 8 samples.

Results

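Cholesterol synthesis and its control were followed through 29 genes in brown adipose tissue (BAT): the enzymes that build cholesterol from acetyl units, the machinery that senses sterols, and the proteins that move, store and export them. The genes were taken by name from the deposited count table, and all 29 were found among its 56953 genes. Of these, 27 had enough reads to be tested, out of 9876 genes tested in all. Idi1 and Abcg1 did not. By role, 7 genes act in the mevalonate steps, 11 in the squalene and sterol ring steps, 5 in sterol sensing, and 6 in sterol transfer, esterification, efflux and the LXR response.

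Cells make cholesterol in the endoplasmic reticulum. Acetyl-CoA is first turned into mevalonate and isoprenoid units, these are joined to squalene, and squalene is folded into lanosterol and trimmed to cholesterol. When membrane sterol is low, Scap carries the SREBP transcription factors to the Golgi, where they are cut and released to switch on nearly every enzyme of the route. When sterol is plentiful, the Insig proteins hold Scap back, and oxysterols switch on the LXR receptors, which promote export. In brown fat the same sterol supply feeds the membranes and lipid droplets of a tissue that stores and burns lipid, and Srebf1 also drives fatty acid synthesis.

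BAT RNA was sequenced from 8 wild-type C57BL/6J mice, with 1 library per mouse. The 4 CTR mice received PBS alone. The 4 CAC mice, a model of cancer-associated cachexia, received 3000000 Lewis lung carcinoma (LLC) cells, a mouse lung tumor line, in PBS under the skin of the right flank. All mice were 8 to 10 weeks old at injection, were kept at 21 °C, and were male or female, and the labels used here do not tie a sex to a library. Monitoring lasted 21 days, and by the methods of the study only mice that carried a tumor were kept in CAC, so the comparison is of tumor-bearing with tumor-free mice and does not separate cachexia from the tumor itself.

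Libraries held 2454493 to 4827956 counts in CTR and 1823167 to 3392538 in CAC. Levels are given as CPM, reads per gene put on one library scale by TMM, and 3 counts, the most that a count of 0 allows, correspond to 0.661 to 1.62 CPM, for counting error only. CPM do not correct for transcript length, so levels were compared between mice and not between genes. The tissue label was checked against 8 brown adipocyte markers, which summed to 14896 to 16688 CPM in CTR and 14672 to 16871 CPM in CAC. Ucp1, the uncoupling protein of brown fat, was at 3804 to 4210 CPM in CTR and 3590 to 4932 CPM in CAC. The sum rests mainly on Ucp1, Cidea and Fabp4. Of the same 8, Ppargc1a, a coactivator of mitochondrial genes, rose in CAC (log2 fold change 0.73, edgeR adjusted p = 0.0201), and Plin1, a lipid droplet coat protein, was lower without overlap of the groups (log2 fold change -0.27, edgeR adjusted p = 0.192). Markers of some other cells differed between the groups. Summed macrophage markers were at 228 to 258 CPM in CTR and 315 to 431 CPM in CAC, and all 9 tested of 12 had a log2 fold change above 0, of which C1qa and C1qb passed the edgeR test. Csf1r was at 44.2 to 62.7 and 63.8 to 80.6 CPM, while Adgre1, Cd14 and Fcgr1 were too low to test. Summed neutrophil markers were at 6.12 to 6.92 CPM in CTR and 165 to 432 CPM in CAC, and the 3 tested of 9, S100a8, S100a9 and Retnlg, were called higher in CAC. The CAC sum was mostly S100a8, at 109 to 294 CPM, and S100a9, at 46.0 to 110.3 CPM, which are not particular to neutrophils. Retnlg was at 0.360 to 2.07 CPM in CTR and 4.79 to 19.5 CPM in CAC. Ly6g and Cxcr2 were at 0 in every CTR library and at no more than 0.541 and 2.66 CPM in CAC. Ngp was at 0 to 0.415 CPM in CTR and 1.62 to 2.64 CPM in CAC. Csf3r, Camp and Ltf averaged 0.188, 0 and 0.0900 CPM in CTR and 1.41, 0.637 and 1.00 CPM in CAC. These markers rest on few counts. Skeletal muscle markers were at 723 to 1917 CPM in CTR and 1579 to 3170 CPM in CAC, and erythrocyte markers at 6180 to 19266 and 14631 to 44312 CPM, with sums that overlapped between the groups. Endothelial sums, at 1200.5 to 1233 CPM in CTR and 959 to 1444 CPM in CAC, and fibroblast sums, at 397 to 520 and 367 to 515 CPM, overlapped as well. In whole tissue, fewer cells of a type and less RNA per cell cannot be told apart.

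The upstream sequences of 4 of the genes are shown because these genes are among the 5 with an unadjusted p below 0.05 in the comparison, and because sterol genes are known to be read through the boxes marked. They are RefSeq sequences of build GRCm38.p6, 5′ to 3′, ending at the last base before the annotated transcript. Capitals mark the SREBP site TCACNCCAC, the NF-Y box CCAAT and the Sp1 box GGGCGG, on either strand. Only Hmgcs1 holds an SREBP site, which begins 137 bases before the start and also fits the stricter form TCACCCCAC, which lies within TCACNCCAC. Srebf1, the fifth gene, has 3 start sites in the table, and the libraries do not tell which one is used, so its sequence is not shown.
Hmgcs1, chr13:119690101-119690350, plus strand: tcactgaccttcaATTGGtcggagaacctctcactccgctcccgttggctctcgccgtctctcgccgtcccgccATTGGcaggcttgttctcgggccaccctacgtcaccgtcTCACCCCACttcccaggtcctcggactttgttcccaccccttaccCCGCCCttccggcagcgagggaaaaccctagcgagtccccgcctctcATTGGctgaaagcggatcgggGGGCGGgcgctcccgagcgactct
Lss, chr10:76531355-76531587, plus strand: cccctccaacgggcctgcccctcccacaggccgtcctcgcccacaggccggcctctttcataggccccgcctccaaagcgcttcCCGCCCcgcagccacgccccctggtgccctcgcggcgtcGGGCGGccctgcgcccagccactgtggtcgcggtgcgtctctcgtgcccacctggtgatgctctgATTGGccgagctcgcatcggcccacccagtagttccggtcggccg
Insig1, chr5:28071162-28071362, plus strand: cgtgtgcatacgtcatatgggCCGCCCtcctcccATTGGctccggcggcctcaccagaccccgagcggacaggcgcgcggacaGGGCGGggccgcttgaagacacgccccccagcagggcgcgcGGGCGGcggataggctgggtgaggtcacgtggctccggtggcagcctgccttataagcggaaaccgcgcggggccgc
Srebf2, chr15:82147019-82147180, plus strand: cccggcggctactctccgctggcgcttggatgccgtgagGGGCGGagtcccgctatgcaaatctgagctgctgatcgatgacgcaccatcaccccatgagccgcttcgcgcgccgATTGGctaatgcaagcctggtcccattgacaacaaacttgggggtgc

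Promoters from 250 bases before to 50 after a start site were listed for 24 of the 29 genes, 33 promoters in all. The NF-Y box, bound by a general factor that works beside SREBP, was in 20 of the 33 (60.6%), against 37.4% of the 32851 promoters of the table. The GC-rich Sp1 box was in 25 of the 33 (75.8%), against 35.7% of all promoters. The SREBP site as spelled here was in 1 of the 33, against 1.24% of all promoters, and its strict form in 0.551% of all. These matches describe letters in a window. Several promoters belong to the same gene, and SREBP is known to bind looser sequences than the one searched.

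No member passed the test between CAC and CTR. With edgeR and Benjamini-Hochberg adjustment, 0 of the 27 tested members had an adjusted p below 0.05, where 0.932% of all tested genes did. DESeq2 and limma-trend also called 0 members. At an unadjusted p below 0.05 in edgeR, 5 members were lower in CAC, where 5.93% of all tested genes were, and 0 were higher, where 7.01% of all tested genes were. The 5 were Hmgcs1, Lss, Insig1, Srebf1 and Srebf2. In log2 fold change, 13 members were above 0 and 14 below, with a median of -0.00 and a range of -0.82 to 0.59. Over all tested genes 4935 were above 0 and 4941 below, with a median of 0. CAC libraries lay entirely below CTR libraries in 2 members, Lss and Tm7sf2, where this held for 3.40% of all tested genes. They lay entirely above in 1 member, Nr1h3, where it held for 3.64% of all tested genes.

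**Figure D1:**
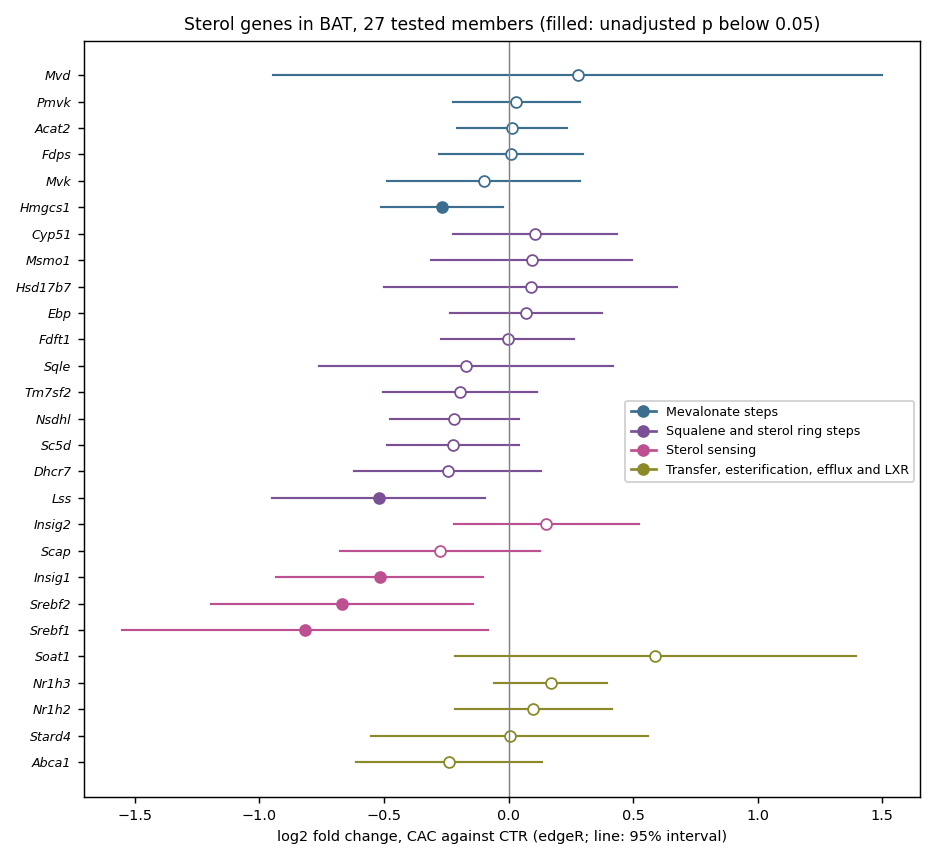
Log2 fold change of CAC against CTR (x axis) for the 27 tested genes (y axis), grouped by role in color, with 95% intervals from edgeR. Filled points have an unadjusted p below 0.05; all 5 of them lie left of 0, 3 of them in the sterol sensing group, and no adjusted p was below 0.05.

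The 4 role groups had different medians. The 6 tested mevalonate genes had a median log2 fold change of 0.01, with 4 higher and 2 lower. The 11 genes of the squalene and ring steps had a median of -0.17, with 4 higher and 7 lower. The 5 sensing genes had a median of -0.52, with 1 higher and 4 lower. Of the 4, 3 had an unadjusted p below 0.05, where 5.93% of all tested genes were lower with such a p. The 5 tested genes of transfer, esterification, efflux and LXR had a median of 0.10, with 4 higher and 1 lower. These medians are descriptions of small groups, and the difference between them was not tested.

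The sterol sensors were the group with the lowest median log2 fold change. Srebf1 (chr11:60199089-60222581 of GRCm38, where Rai1 overlaps it on the opposite strand) encodes SREBP1, which drives fatty acid and sterol genes. It was at 28.1, 31.4, 19.5 and 11.5 CPM in CTR replicates 1 to 4 and at 11.9, 7.44, 16.4 and 13.2 CPM in CAC replicates 1 to 4. The groups overlapped, since CTR replicate 4 lay below 3 of the CAC libraries, while the other 3 CTR libraries were above every CAC library. CTR mice averaged 22.6 ± 8.97 CPM and CAC mice 12.2 ± 3.72 CPM (SD, n = 4). The log2 fold change was -0.82, with a 95% interval of -1.55 to -0.08 (edgeR unadjusted p = 0.0326, adjusted p = 0.326). Without CTR replicate 4 the log2 fold change was -1.06 and the edgeR adjusted p was 0.0210. The adjusted p also fell below 0.05, to 0.00236, when genes with low counts were kept in the edgeR fit. Over all other settings and left-out mice it stayed above the threshold, with an upper end of 0.547.

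Srebf2 (chr15:82147181-82205379) encodes SREBP2, the main activator of the cholesterol enzymes, and its gene hosts the microRNA Mir33. Its level was 12.6, 10.1, 16.2 and 14.8 CPM in CTR and 13.0, 9.57, 7.62 and 4.88 CPM in CAC. CAC replicate 1 lay within the CTR range, and the other 3 CAC libraries lay below every CTR library. CTR mice averaged 13.4 ± 2.65 CPM and CAC mice 8.76 ± 3.40 CPM (SD, n = 4). For Srebf2 the log2 fold change was -0.67, with a 95% interval of -1.20 to -0.14 (edgeR unadjusted p = 0.0153, adjusted p = 0.252). These levels rest on 14.2 to 67.4 counts per library. All 8 libraries hold fractions of reads on Srebf2, that is reads shared with other features.

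Insig1 (chr5:28071363-28078662) encodes the anchor that holds Scap in the endoplasmic reticulum and is itself an SREBP target. It was at 121, 122, 102 and 86.7 CPM in CTR and at 74.6, 70.2, 104 and 50.5 CPM in CAC. CAC replicate 3 lay inside the CTR range, and the other 3 CAC libraries lay below all CTR libraries. CTR mice averaged 107.7 ± 16.8 CPM and CAC mice 74.8 ± 22.1 CPM (SD, n = 4), and edgeR put the log2 fold change at -0.52, with a 95% interval of -0.93 to -0.10 (edgeR unadjusted p = 0.0191, adjusted p = 0.271). Without CAC replicate 3 the log2 fold change was -0.74 (edgeR adjusted p = 0.0356), and with low-count genes kept it was -0.54 (edgeR adjusted p = 0.00201).

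The other pair of sensors differed less. Scap, the SREBP escort, was at 14.4, 20.2, 19.1 and 19.2 CPM in CTR and at 11.9, 21.8, 14.1 and 13.6 CPM in CAC. Its log2 fold change was -0.28, with an interval of -0.68 to 0.13 (edgeR unadjusted p = 0.168). Insig2, the second anchor, which is not held to be a strong SREBP target, was at 31.7, 25.3, 24.5 and 20.5 CPM in CTR and at 40.0, 26.6, 23.1 and 24.8 CPM in CAC. Its log2 fold change was 0.15, with an interval of -0.22 to 0.52 (edgeR unadjusted p = 0.406). The groups overlapped for both genes. SREBP activity is set by cleavage of the protein, which was not measured here.

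**Figure D2:**
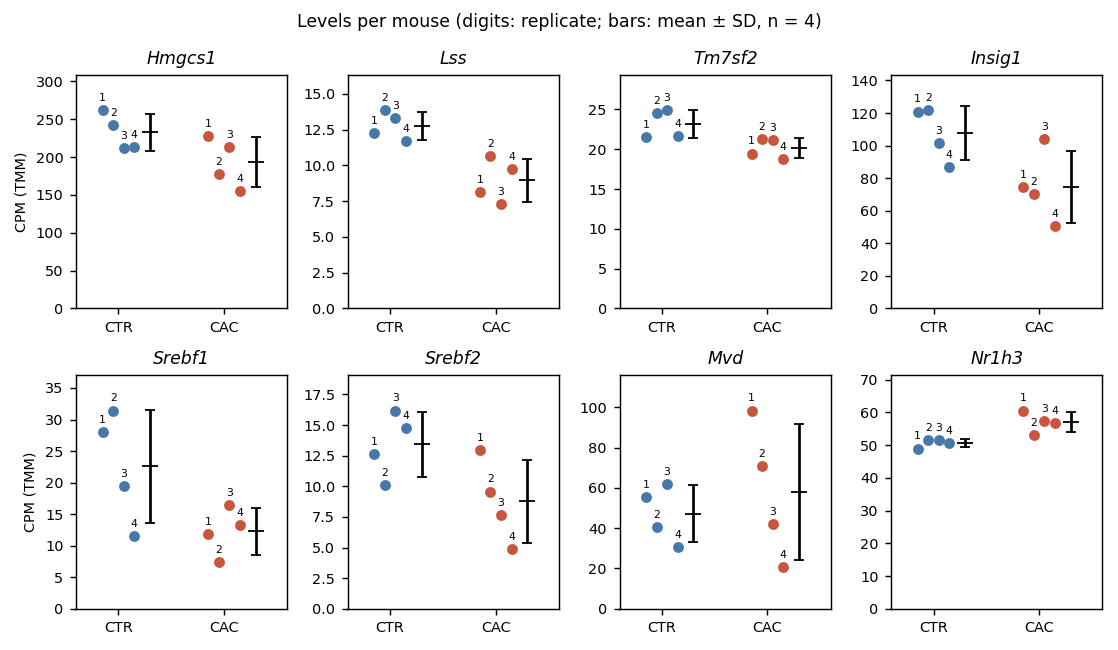
CPM per mouse (y axis, TMM scaled, from 0) of 8 genes in CTR (blue) and CAC (red); digits give the replicate and bars the mean ± SD of 4 mice. The CAC mice lie below all CTR mice for Lss and Tm7sf2 and above them for Nr1h3, the groups overlap for the others, and Mvd spreads from 20.6 to 98.4 CPM within CAC.

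Among the mevalonate enzymes, Hmgcs1 was the member with an unadjusted p below 0.05. Hmgcs1 (chr13:119690379-119708260) joins acetyl units into HMG-CoA, one step before mevalonate, and its promoter, printed above, holds the SREBP site. It was at 262, 242, 212 and 213 CPM in CTR and at 228, 178, 213 and 155 CPM in CAC. CAC replicates 2 and 4 lay below all CTR libraries, while CAC replicates 1 and 3 lay within their range. CTR mice averaged 232.6 ± 24.0 CPM and CAC mice 193 ± 33.4 CPM (SD, n = 4). In edgeR the log2 fold change was -0.27, with a 95% interval of -0.51 to -0.02 (edgeR unadjusted p = 0.0351, adjusted p = 0.337). An antisense gene, Gm48342, overlaps Hmgcs1, and the strand setting of the counting is not given in the sources used here.

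Acat2, Pmvk, Mvk and Fdps had log2 fold changes closer to 0. Acat2, which condenses acetyl-CoA at the entry to the route, was at 359, 361, 327 and 345 CPM in CTR and at 368, 426, 304 and 310.3 CPM in CAC. Its log2 fold change was 0.01, with the narrow interval of -0.21 to 0.24. Pmvk, which adds the second phosphate to mevalonate, was at 118, 137, 130.3 and 131 CPM in CTR and at 171, 128, 120.4 and 111 CPM in CAC, and its log2 fold change was 0.03, with an interval of -0.22 to 0.29. Both CAC groups were wider than their CTR groups, with SDs of 57.3 against 15.5 CPM for Acat2 and 26.8 against 7.75 CPM for Pmvk, from 4 mice each. The log2 fold change of Mvk, the mevalonate kinase, was -0.10 (-0.49 to 0.29), and that of Fdps, which makes farnesyl diphosphate, was 0.01 (-0.28 to 0.30).

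Mvd, which decarboxylates mevalonate diphosphate to the first isoprenoid unit, varied most and was picked for its spread after its values were seen. It was at 55.4, 40.5, 61.8 and 30.6 CPM in CTR and at 98.4, 70.7, 42.2 and 20.6 CPM in CAC. The highest and the lowest of all 8 values were both in CAC, in replicates 1 and 4. Its standard error of 0.50 was the largest of the 27 members, and its interval of -0.95 to 1.5 around a log2 fold change of 0.28 leaves both a lower and a higher level possible. Leaving out CAC replicate 1 turned the value to -0.09. Idi1, which isomerizes the isoprenoid unit, was too low to test, with 1 to 9 counts per library. It was at 3.24, 1.86, 0.415 and 1.32 CPM in CTR and at 0.541, 2.66, 0.586 and 1.39 CPM in CAC, which overlap (two-sided exact permutation test over 70 assignments, p = 0.657).

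In the squalene and ring steps, Lss (chr10:76531588-76557138) had the lowest log2 fold change. Lss folds oxidosqualene into lanosterol, the first sterol of the route. It was at 12.2, 13.8, 13.3 and 11.7 CPM in CTR and at 8.11, 10.6, 7.33 and 9.76 CPM in CAC. Every CAC library lay below every CTR library, the nearest being CAC replicate 2 and CTR replicate 4. The CTR mean was 12.8 ± 0.981 CPM and the CAC mean 8.96 ± 1.51 CPM (SD, n = 4). For Lss the log2 fold change was -0.52, with a 95% interval of -0.95 to -0.10 (edgeR unadjusted p = 0.0188, adjusted p = 0.270). The values rest on 15 to 53 counts per library, and 3 libraries hold fractions of reads. An antisense gene, 4930483K19Rik, overlaps Lss.

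Tm7sf2, a sterol reductase that acts after lanosterol, also separated the groups, by a smaller step. It was at 21.6, 24.5, 24.9 and 21.6 CPM in CTR and at 19.5, 21.3, 21.1 and 18.8 CPM in CAC. The highest CAC value, 21.3 CPM, was close to the lowest CTR value, 21.6 CPM. The log2 fold change was -0.20 with an interval of -0.50 to 0.11 (edgeR unadjusted p = 0.203), so that the separation did not come with a small p. Tm7sf2 overlaps Vps51 on the same strand, and 5 libraries hold fractions of reads on it.

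The groups overlapped for the pair of ring-step genes with the highest CPM among the rest. Fdft1, squalene synthase, was at 59.7, 70.8, 62.2 and 47.2 CPM in CTR and at 62.7, 57.4, 54.8 and 64.1 CPM in CAC. Its log2 fold change was -0.00, with an interval of -0.27 to 0.26. Cyp51, the lanosterol demethylase, was at 54.0, 58.6, 60.6 and 40.8 CPM in CTR and at 69.2, 68.6, 50.4 and 43.6 CPM in CAC. In edgeR the log2 fold change was 0.11, with an interval of -0.22 to 0.44. CAC replicates 1 and 2 were above all CTR libraries for Cyp51, and CAC replicates 3 and 4 were within their range.

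The rest of the ring-step genes ranged from -0.24 to 0.09 in log2 fold change. Sqle, the squalene epoxidase, a regulated step, was at -0.17 (interval -0.76 to 0.42). Of the genes that trim the ring, Msmo1 was at 0.09 (-0.31 to 0.50), Hsd17b7 at 0.09 (-0.50 to 0.68), Ebp at 0.07 (-0.23 to 0.38) and Nsdhl at -0.22 (-0.47 to 0.04). Sc5d, which makes a double bond in the ring, was at -0.22 (-0.49 to 0.04), and Dhcr7, the last reductase of its branch, at -0.24 (-0.62 to 0.13). Each of these 7 intervals holds 0.

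For the 17 tested synthesis enzymes together, 8 were higher and 9 lower, the median log2 fold change was -0.00, and 15 of the 17 intervals hold 0. The summed level of all 18 synthesis enzymes, with Idi1, was 1238, 1223, 1132 and 1083 CPM in CTR and 1289, 1236, 1051 and 943 CPM in CAC. The highest and the lowest sums were both CAC libraries, replicates 1 and 4. The CTR mean was 1169 ± 73.9 CPM and the CAC mean 1130 ± 161 CPM (SD, n = 4), a gap smaller than either SD. Without CAC replicate 4 the mean of CAC was above that of CTR by 23.0 CPM, and with all mice the difference of CAC from CTR was -39.1 CPM.

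Single libraries stood out within the groups. CAC replicate 4 held the lowest value of all 8 libraries in 10 of the 27 members, 7 of them synthesis enzymes, and CAC replicate 1 and CTR replicate 2 each held the highest in 6. In CTR, replicate 4 held the lowest value in 5 members and the highest in 0. CAC replicate 4 had 2936122 counts, which is within the range of the others, and its brown adipocyte markers summed to 16278 CPM and its macrophage markers to 379 CPM, both within the range of the other CAC libraries. Its endothelial markers summed to 959 CPM, the lowest of the 8 libraries, where the others were at 1109 to 1444 CPM, and its neutrophil markers to 165 CPM, the lowest in CAC. The part of these in its low values was not tested.

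**Figure D3:**
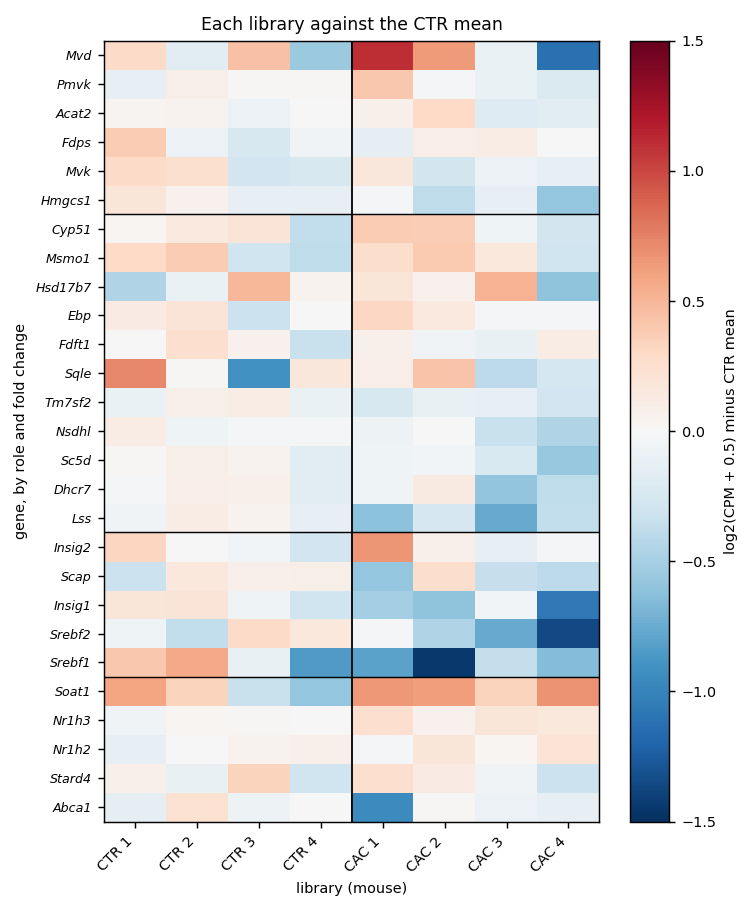
Each library (x axis) against the mean of the CTR libraries for the 27 tested genes (y axis), in log2(CPM + 0.5), with blue for lower, red for higher and lines between role groups. CAC replicate 4 is blue in most of the enzyme and sensor genes, CAC replicate 1 is red for Mvd, and Srebf1 is below the CTR mean in all 4 CAC libraries and in CTR replicates 3 and 4.

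On the export side, Nr1h3 (chr2:91184061-91202834) encodes LXR alpha, an oxysterol receptor found in fat, liver and macrophages. It was at 48.9, 51.7, 51.5 and 50.7 CPM in CTR and at 60.5, 53.2, 57.4 and 56.8 CPM in CAC. Every CAC library lay above every CTR library, and the CTR values were close together, at 50.7 ± 1.24 CPM against 57.0 ± 3.02 CPM (SD, n = 4). The log2 fold change was 0.17, a ratio of 1.12, with an interval of -0.06 to 0.40 (edgeR unadjusted p = 0.137, adjusted p = 0.550). Macrophage markers were higher in the same libraries, as given above, and their part in the level of Nr1h3 was not tested. Nr1h2, which encodes the widely expressed LXR beta, was at 17.6, 19.2, 19.9 and 20.3 CPM in CTR and at 18.9, 21.8, 19.6 and 22.3 CPM in CAC, with overlapping groups, and its log2 fold change was 0.10 (-0.22 to 0.42).

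Abca1, the LXR target that loads cholesterol onto apolipoproteins, was at 21.2, 27.7, 22.4 and 23.6 CPM in CTR and at 11.9, 23.9, 22.3 and 21.6 CPM in CAC. One library, CAC replicate 1, stood below the other 7, which overlapped. In edgeR the log2 fold change was -0.24 (-0.61 to 0.14), and it was -0.08 without CAC replicate 1. Abcg1, its partner in export, was too low to test, at 0.360, 2.13, 0.830 and 0.661 CPM in CTR and at 0, 1.6, 0.586 and 2.09 CPM in CAC. The count of 0 in CAC replicate 1 allows a level of up to 1.62 CPM, so that a difference in Abcg1 was not detectable at this depth (exact permutation test, p = 0.943).

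Soat1, which esterifies cholesterol for storage, had the highest log2 fold change of the members, 0.59, with an interval of -0.21 to 1.39 (edgeR unadjusted p = 0.142, adjusted p = 0.554). It was at 3.6, 2.93, 1.66 and 1.32 CPM in CTR and at 3.78, 3.72, 2.93 and 3.83 CPM in CAC, which is 3.5 to 11.25 counts per library. The groups overlapped, with CTR replicates 1 and 2 at the level of the CAC libraries. Stard4, a carrier of free sterol between membranes, averaged 5.89 ± 1.22 CPM over CTR and 5.88 ± 1.08 CPM over CAC mice (SD, n = 4), and its log2 fold change was 0.00, with an interval of -0.55 to 0.56.

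How far the data reach can be read from the intervals. For 12 of the 27 tested members the whole 95% interval lay within 0.5 of 0 on the log2 scale, and for 23 it lay within 1. The other 4 were Mvd, Srebf1, Srebf2 and Soat1. In simulated data of this comparison, edgeR called 71 of 95 genes that were changed by a log2 of 1 and 96 of 97 changed by 2. The changed genes were drawn at random from all tested genes, so these shares are not those of a given member. Changes smaller than a log2 of 1 were not simulated, and the members ranged from -0.82 to 0.59.

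Leaving out single mice moved the members with an unadjusted p below 0.05. Srebf2 and Lss kept such a p in 7 of 8 fits, Insig1 in 5, Hmgcs1 in 4 and Srebf1 in 3. Their log2 fold changes ranged from -0.89 to -0.45 in Srebf2, from -0.60 to -0.42 in Lss, from -0.74 to -0.36 in Insig1, from -0.35 to -0.17 in Hmgcs1 and from -1.06 to -0.59 in Srebf1. All were below 0 in every fit. Srebf2 lost such a p without CAC replicate 4, where its log2 fold change was -0.45, and Lss without CAC replicate 3, where it was -0.42. Nsdhl and Scap gained one without CAC replicate 2.

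**Figure D4:**
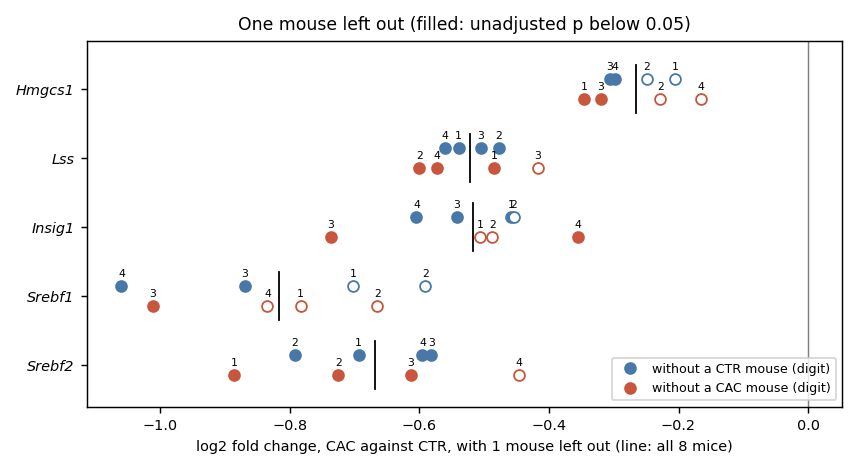
Log2 fold change of CAC against CTR (x axis) for 5 genes (y axis) when 1 mouse is left out; the digit gives the replicate left out, blue a CTR and red a CAC mouse, filled points have an unadjusted p below 0.05, and the vertical line is the value with all 8 mice. All points lie left of 0, and Srebf1 spreads widest, from -1.06 to -0.59.

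The wider sterol pathway was looked at through 66 further genes in 6 lists, of which 49 were tested. With edgeR and an adjusted p below 0.05, 0 were called. On the same genes, limma-trend also called 0 and DESeq2 called 1, Acat1. At an unadjusted p below 0.05, 4 were higher and 3 lower in CAC, where 7.01% and 5.93% of all tested genes were. By sign, 21 were higher and 28 lower, and the median log2 fold change was -0.07. Of 8 tested genes of SREBP processing and sterol-dependent turnover, 3 were higher and 5 lower. Mbtps1, the protease that makes the first cut in SREBP, was at -0.26 (edgeR adjusted p = 0.422).

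Acat1, the mitochondrial thiolase of ketone body and isoleucine use, came nearest to the threshold. It was at 217, 240.0, 203 and 213 CPM in CTR and at 155, 158, 164 and 182 CPM in CAC, and every CAC library lay below every CTR library. The CTR mean was 218 ± 15.7 CPM and the CAC mean 165 ± 12.1 CPM (SD, n = 4). For Acat1 the log2 fold change was -0.40 (edgeR unadjusted p = 5.08e-04, adjusted p = 0.0533). It shares its reaction with Acat2, the cytosolic thiolase of the sterol route, whose log2 fold change was 0.01. The difference between the 2 thiolases was not tested. Of the other enzymes in that list, Lbr, a sterol reductase of the nuclear envelope, was at 0.41 (edgeR adjusted p = 0.685). In the isoprenoid branch 1 of 7 tested genes was higher and 6 were lower, and the smallest p values were those of Fnta, at -0.15 (edgeR adjusted p = 0.637), and Ggps1, at -0.17 (edgeR adjusted p = 0.657).

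For uptake and lysosomal release, 6 of 10 tested genes were higher and 4 lower. Scarb1, the receptor that takes up cholesteryl ester from HDL, was at 31.3, 46.6, 44.4 and 50.3 CPM in CTR and at 49.2, 70.2, 58.6 and 59.6 CPM in CAC. Only CAC replicate 1 and CTR replicate 4 overlapped. For Scarb1 the log2 fold change was 0.45 (edgeR adjusted p = 0.149), and that of Stard3, which binds sterol at late endosomes, was -0.53 (edgeR adjusted p = 0.511). Among 13 tested genes of sterol transfer, 7 were higher and 6 lower. Osbpl9, an oxysterol-binding protein relative, averaged 55.1 ± 3.37 CPM over CTR and 71.7 ± 3.96 CPM over CAC mice (SD, n = 4), with groups that did not overlap. For Osbpl9 the log2 fold change was 0.37 (edgeR adjusted p = 0.11). Gramd1b, which carries sterol from the plasma membrane to the endoplasmic reticulum, averaged 16.5 ± 5.24 and 24.5 ± 7.49 CPM over the same mice, and its log2 fold change was 0.53 (edgeR adjusted p = 0.339).

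Of 7 tested genes of efflux and LXR action, 2 were higher and 5 lower in CAC. Abca2, an endolysosomal transporter of the family of Abca1, averaged 87.2 ± 5.83 CPM over CTR and 68.7 ± 7.47 CPM over CAC mice (SD, n = 4), with groups that did not overlap. For Abca2 the log2 fold change was -0.34 (edgeR adjusted p = 0.168). Rxra, the partner of the LXR receptors on DNA, was at -0.15 (edgeR adjusted p = 0.718).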

How the data were processed

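BAT RNA was sequenced as single-end digital mRNA libraries, 1 per mouse, and libraries were assigned to CTR or CAC, and to their columns, by their labels. The authors checked reads with FastQC 0.11.9, aligned them to mm10 with HISAT2 2.2.1 and counted them with featureCounts with its multi-mapping option. The deposited table holds expected counts, not normalized, and 25.1% to 28.4% of its values above 0 carry decimals, depending on the library. A second deposited table of 24792 genes holds a signal, counts that the authors scaled with DESeq2.

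Counts were rounded, filtered by filterByExpr, scaled by TMM and tested with edgeR 4.0.16 (R 4.3.3, robust quasi-likelihood test, no covariate, Benjamini-Hochberg adjustment over 9876 genes, threshold 0.05). Intervals are 95% intervals of the log2 fold change. A group comparison of 4 against 4 by the exact permutation test cannot go below p = 0.0286. Alternatives were DESeq2 1.42.0, limma-trend from limma 3.58.1, run on log2(signal + 1), 2 other normalizations, no filter, at least 10 counts in every library, truncated counts, the replicate number as a block, and each mouse left out. In simulated data the test called 8 of 9422 unchanged genes.

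The members and all lists were chosen with earlier results of these data known. Every library value was given for members with an unadjusted p below 0.05, for those whose groups do not overlap, and for the 1 or 2 others of each role group with the highest mean CPM, and of each further list the 2 smallest p. Gene positions are those of GENCODE M21 on GRCm38, matched by identifier without version for 29 of 29 members. Some sterol genes are not reported here. Figures were drawn with matplotlib 3.10.9.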

Additional observations from a re-analysis of the deposited data

Results flagged for a closer look

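Soat1 in CAC replicate 3 stood apart from its group, at 2.93 CPM where the other 3 CAC libraries were at 3.72 to 3.83 CPM. The gap was 0.876 of the range of the group, above the 95% critical value of Dixon for 4 libraries. Of 60 groups of 4 looked at, 1 was found in this way, and chance gives about 3. The value is 10.25 counts, and CTR replicate 2 was at the same level.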

How the results depend on the processing

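With no filter on low counts, 351 of 23730 genes were called by edgeR, and 2 of them were members, Srebf1 and Insig1, against 92 genes and 0 members in the reported fit. The cause was not tested. In the reported fit, 5 members passed with an unadjusted p below 0.05 as threshold, and 0 passed with an adjusted p below 0.10. DESeq2 gave 3 members with an unadjusted p below 0.05 (Srebf1, Srebf2 and Insig1), all lower in CAC, against 5 with edgeR, and the same 5 members as reported had such a p under library size and upper quartile scaling, without a filter, with at least 10 counts in every library, with truncated counts and in limma-trend. Acat2 was at -0.0095 and Fdps at -0.0107 with upper quartile scaling, and at -0.0154 and -0.0143 without the filter, where the reported values were 0.0133 and 0.0103. No setting moved the median log2 fold change of all tested genes by more than 0.022.

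With 1 mouse left out, calls over all genes ranged from 42, without CTR replicate 1, to 135, without CTR replicate 3, with 60 without CAC replicate 3. Members called ranged from 0 to 1 (Srebf1 without CTR replicate 4, Insig1 without CAC replicate 3), and members lower with an unadjusted p below 0.05 from 2 to 5, with 2 without CTR replicate 2 or CAC replicate 4 and 3 without CTR replicate 1 or CAC replicate 1. The log2 fold change passed 0 for Acat2 (-0.0909 to 0.0769), Pmvk (-0.11 to 0.11), Mvd (-0.093 to 0.58), Fdps (-0.059 to 0.15), Sqle (-0.36 to 0.0707), Msmo1 (-0.0384 to 0.24), Hsd17b7 (-0.16 to 0.30), Ebp (-0.0164 to 0.14), Insig2 (-0.0273 to 0.27), and also for Fdft1 (-0.10 to 0.09), Cyp51 (-0.0048 to 0.23) and Stard4 (-0.10 to 0.12). The median of the synthesis enzymes ranged from -0.11 to -0.01, and their summed difference from -92.3 to 23.0 CPM.

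Deviations of mice with the same replicate number correlated at -0.02 to 0.04, and those of mice with different numbers at -0.05 to 0.04. Not every mouse correlated best with its own number. These correlations cannot decide whether mice of the same number shared a litter or a batch. The reported fit used no pairing. The fit with the replicate number as a block called 140 genes and 0 members, and the same 5 members had an unadjusted p below 0.05.

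Depth limits the low genes. At 1823167 to 4827956 counts per library, Soat1, Idi1 and Abcg1 held 0 to 11.25 counts, so that differences in them are not resolved. For 15 of 27 members the interval reached beyond 0.5 on the log2 scale, and 15 of 29 members overlap another annotated gene.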
